A study of Homo sapiens with 12 samples.

Results

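The genes described here are 35 genes of cholesterol and fatty acid synthesis and of sterol control, out of 19504 genes with a symbol in the count table. They were chosen by name in 5 branches: 7 genes of the mevalonate steps, 11 of the sterol steps, 5 of SREBP control and sterol transport, 7 of fatty acid synthesis and desaturation, and 5 LXR receptors and targets. No threshold on a measured value entered the rule, but the genes were chosen with earlier results of these data known. ACACA was not analysed here, and 34 of the 35 had a row. Of these, 32 passed the filter on low counts. ELOVL6, a fatty acid elongase, and ABCG1, a sterol exporter, did not pass, with 0 to 6 counts per library.

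Transcripts were counted by sequencing of mRNA 3′ ends in MV4-11 and OCI-AML3, human acute myeloid leukaemia cell lines grown in medium with fetal bovine serum. The 4 groups were MV4-11 under 5 nM AC220, MV4-11 under DMSO, OCI-AML3 under 5 nM AC220 and OCI-AML3 under DMSO, all at 24 h and with 3 libraries each. AC220 (quizartinib) is a small-molecule inhibitor of the receptor tyrosine kinase FLT3, and DMSO is its vehicle. MV4-11 is known to carry an internal tandem duplication of FLT3, and OCI-AML3 a mutated NPM1 and no such duplication, so each genotype is represented by 1 cell line and genotype cannot be told apart from any other difference between the lines. Whether the replicates were separate cultures is not stated in the labels, and the p-values cover only the spread among these libraries, which could be technical.

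Cells make cholesterol from acetyl-CoA through mevalonate, isoprenoids, squalene and a long series of sterol intermediates, and make fatty acids from the same acetyl-CoA. When membrane sterol is low, the SREBP transcription factors are escorted by SCAP out of the endoplasmic reticulum, are cleaved and turn on genes of both routes. INSIG1 holds SCAP and SREBP back when sterol is plentiful. The LXR receptors respond to oxidised sterols and turn on genes that export cholesterol or limit its uptake.

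Totals ran from 10877198 to 16918761 counts per library. Levels are given as CPM after TMM scaling (a gene's counts relative to the size of its library), in the order of replicates 1, 2 and 3, and a difference as a log2 fold change with its standard error (SE). "Rose", "fell", "higher" and "lower" in the sense of a call mean an adjusted p under 0.05 in the quasi-likelihood test of edgeR, after Benjamini-Hochberg adjustment across the 12392 genes tested. MV4-11 AC220 replicate 1 stood apart from the other libraries of its group, with a chi-square per degree of freedom of 10 and 11.2 against them, where every other pair of replicates lay between 2.86 and 9.02. Replicate 3 also stood apart in both OCI-AML3 groups. Under AC220 it had 9.02 and 7.33 against the other libraries, which had 4.57 between them. Under DMSO these values were 6.94 and 6.86, against 2.86. Counts of members are therefore also given without MV4-11 AC220 replicate 1, and in OCI-AML3 without replicate 3 of each group. FLT3 had 364 ± 133 CPM in MV4-11 AC220 and 218 ± 22.8 CPM in MV4-11 DMSO, and 23.1 ± 4.23 CPM in OCI-AML3 AC220 and 11.9 ± 1.63 CPM in OCI-AML3 DMSO (SD, n = 3 each). Of 8 myeloid markers all were detected in both lines, whereas the T cell markers CD3E and CD2, the erythroid marker HBB and the epithelial markers EPCAM and KRT19 had no counts in any library. Of the same lists, the T cell marker CD3D reached 0.279 CPM in MV4-11 AC220 libraries and 0.706 CPM in MV4-11 DMSO libraries. CD3D had no counts in OCI-AML3, and the erythroid marker ALAS2 had 0.0719 to 0.363 CPM across all 12 libraries. The stromal marker COL1A2 averaged 6.89 CPM in OCI-AML3 AC220 and 4.35 CPM in OCI-AML3 DMSO. In MV4-11, COL1A2 averaged 0.491 CPM under AC220 and 0.214 CPM under DMSO. COL1A1 reached at most 0.684 CPM in any library, in MV4-11 AC220.

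Promoter sequences were read for the members. The set of RefSeq promoter sequences used here (GRCh38.p14) held 30 of the 35 members. ACAT2, FASN, ABCG1, FDFT1 and SQLE were missing from that set, though RefSeq annotates all 35 genes. The 250 bases before each start were searched on both strands for the sterol regulatory element TCACNCCAC, for CCAAT, to which NF-Y binds, for the GC box GGGCGG, to which SP1 binds, and for the E-box CACGTG. None of these motifs contains another. CCAAT stood in 18 of the 30 members (60.0%), against 33.0% of 27305 RefSeq promoters, and was found in 8 of 9 promoters of the sterol steps and 4 of 6 of the mevalonate steps, but 2 of 6 of the fatty acid branch and 1 of 4 of the LXR branch. The GC box stood in 27 of 30 (90.0%, against 42.3%), the E-box in 4 of 30 (13.3%, against 6.49%) and the sterol regulatory element in 1 of 30, SREBF2, where it began 133 bases before the start (3.33%, against 0.875%). The 27305 promoters were not limited to the 12392 genes tested, and shares among tested genes were not computed. Motif counts are exact matches of letters in a fixed window, so variants of a motif and sites elsewhere are missed. The start site used by these cells may be another.

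Below are the 150 bases before the start of the member with the largest change in MV4-11 in each branch. Only members with a promoter sequence were considered. SREBF2, the holder of the exact match to the sterol regulatory element, is shown as well. Each is written 5′ to 3′ on the gene's own strand, with CCAAT (or ATTGG, its reverse complement) and the sterol regulatory element in capitals. The windows are chr5:43313413-43313562 (minus strand) for HMGCS1, chr11:71448394-71448543 (minus) for DHCR7, chr7:155297728-155297877 (plus) for INSIG1, chr22:41832955-41833104 (plus) for SREBF2, chr11:61817004-61817153 (minus) for FADS1 and chr6:16128936-16129085 (plus) for MYLIP.
HMGCS1: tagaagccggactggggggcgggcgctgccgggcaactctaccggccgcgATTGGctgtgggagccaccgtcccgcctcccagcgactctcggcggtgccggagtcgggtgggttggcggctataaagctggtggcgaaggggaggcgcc
DHCR7: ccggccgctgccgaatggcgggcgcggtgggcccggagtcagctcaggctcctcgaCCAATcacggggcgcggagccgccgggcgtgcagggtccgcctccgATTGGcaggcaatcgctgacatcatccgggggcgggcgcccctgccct
INSIG1: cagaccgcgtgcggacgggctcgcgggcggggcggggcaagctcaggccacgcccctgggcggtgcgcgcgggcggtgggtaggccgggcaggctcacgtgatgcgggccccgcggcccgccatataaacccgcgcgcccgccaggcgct
SREBF2: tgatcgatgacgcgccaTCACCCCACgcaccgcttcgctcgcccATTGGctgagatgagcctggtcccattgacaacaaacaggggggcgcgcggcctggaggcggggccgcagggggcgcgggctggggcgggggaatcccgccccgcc
FADS1: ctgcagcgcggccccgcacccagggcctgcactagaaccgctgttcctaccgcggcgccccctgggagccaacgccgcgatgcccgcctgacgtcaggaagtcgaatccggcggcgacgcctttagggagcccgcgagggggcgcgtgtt
MYLIP: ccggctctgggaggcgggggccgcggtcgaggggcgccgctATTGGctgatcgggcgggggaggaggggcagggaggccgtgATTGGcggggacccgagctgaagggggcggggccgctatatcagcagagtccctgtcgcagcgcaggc
DHCR7 and MYLIP show 2 CCAAT matches each in these bases, and HMGCS1 and SREBF2 show 1. FADS1 and INSIG1 show none, although INSIG1 has 1 farther from its start, within the 250 bases searched. DHCR7 and HMGCS1 fell in MV4-11 and MYLIP rose, and a link between these matches and the changes was not tested.

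In MV4-11, transcripts of mevalonate enzymes (HMGCS1, FDPS), of several sterol enzymes (DHCR7, MSMO1, SQLE) and of the 5 tested enzymes of fatty acid synthesis and desaturation were lower after AC220, by up to 3.16-fold. The LXR targets ABCA1 and MYLIP and the sterol reductase TM7SF2 were higher. Of the 32 members tested, 14 fell (43.8%, against 26.9% of all tested genes), 6 rose (18.8%, against 31.5%) and 12 were not called. The 20 called in either direction are 62.5% of the 32, close to the 58.3% of all tested genes called in this comparison. The median log2 fold change of the 32 was -0.366, against 0.0651 over all tested genes. With a change of at least 2-fold in addition, 7 members fell (against 8.74% of all tested genes) and 2 rose (against 9.73%). Without MV4-11 AC220 replicate 1, 15 fell and 7 rose. These are shares of all counted transcripts in a bulk culture, in which fewer cells expressing a gene and less of its RNA per cell cannot be told apart.

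**Figure D1:**
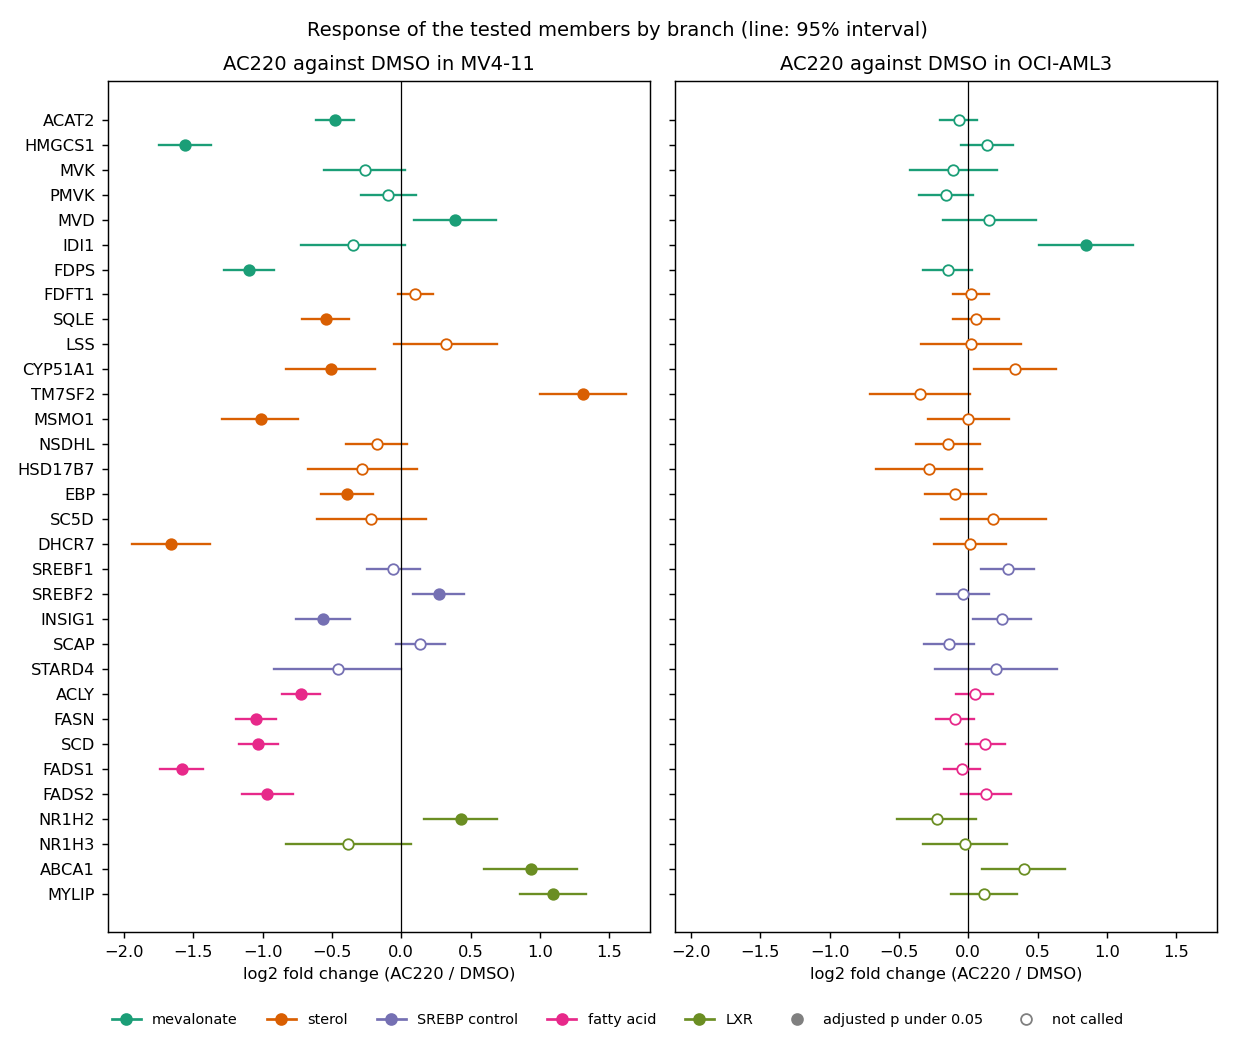
Response of the 32 tested members to AC220. The left panel shows the log2 fold change (AC220 over DMSO) in MV4-11 and the right panel that in OCI-AML3, with lines for the 95% interval, colours for the branch and filled points for an adjusted p under 0.05. The 5 fatty acid genes lie left of zero in MV4-11, and IDI1 is the 1 filled point in OCI-AML3.

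Of the 7 genes of the mevalonate steps, 3 fell, 1 rose and 3 were not called, with a median log2 fold change of -0.35. Counts in this and the other branches stand against 26.9% of all tested genes that fell in MV4-11 and 31.5% that rose. HMGCS1, the cytosolic synthase that makes HMG-CoA, had 43.2, 33.1 and 40.7 CPM in MV4-11 AC220, against 103, 117 and 127 CPM in MV4-11 DMSO. All 3 AC220 libraries lay far below the lowest DMSO library. HMGCS1 fell 2.95-fold, a log2 fold change of -1.56 (SE 0.0929, adjusted p = 9.53e-15). FDPS, which makes farnesyl diphosphate, the branch point to sterols and to protein prenylation, had 70.7, 66.6 and 85.6 CPM in MV4-11 AC220 and 159.7, 160.2 and 157 CPM in MV4-11 DMSO. The groups did not overlap, and the DMSO libraries were within a few CPM of each other. FDPS fell 2.14-fold (-1.10, SE 0.0879, adjusted p = 4.23e-11).

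ACAT2, the cytosolic thiolase that starts the route by joining acetyl-CoA units, fell to 292 ± 17.8 CPM in MV4-11 AC220, against 406 ± 20.1 CPM in MV4-11 DMSO (SD, n = 3 each, log2 fold change -0.48, adjusted p = 3.48e-07). Its annotated span overlaps those of SOD2 and TCP1, and the strand setting of the counting is not given in the sources used here. MVD, the decarboxylase that makes isopentenyl diphosphate, rose to 15.3 ± 2.17 CPM, against 11.7 ± 0.809 CPM (0.39, SE 0.144, adjusted p = 0.0233). That call was lost when MV4-11 AC220 replicate 2 (adjusted p = 0.0965), MV4-11 AC220 replicate 3 (0.144) or MV4-11 DMSO replicate 1 (0.101) was left out. It was also lost with library size alone in place of TMM (adjusted p = 0.0895) and with the MV4-11 libraries fitted alone (0.0509). The kinases of the route were not called: MVK had 15.2 ± 2.61 CPM in MV4-11 AC220 and 18.2 ± 2.32 CPM in MV4-11 DMSO, and PMVK 32.3 ± 3.28 and 34.3 ± 3.36 CPM. IDI1, the isomerase of isopentenyl diphosphate, had 8.27 ± 1.02 and 10.6 ± 1.96 CPM (-0.35, 95% interval -0.724 to 0.0235, adjusted p = 0.101). MVK was called lower without AC220 replicate 2 (adjusted p = 0.0473), and IDI1 without DMSO replicate 1 (0.0405).

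Among the 11 genes of the sterol steps, which turn farnesyl diphosphate into cholesterol, 5 fell, 1 rose and 5 were not called (median log2 fold change -0.281). DHCR7, the reductase of the last step to cholesterol, had 5.62, 8.10 and 7.27 CPM in MV4-11 AC220, against 23.7, 20.0 and 22.2 CPM in MV4-11 DMSO. All AC220 libraries lay far below the lowest DMSO library, and DHCR7 fell 3.16-fold (-1.66, SE 0.138, adjusted p = 1.88e-11). MSMO1, the methyl sterol monooxygenase, had 19.1, 16.9 and 14.0 CPM in MV4-11 AC220 and 30.6, 32.1 and 38.7 CPM in MV4-11 DMSO. The groups did not overlap, with AC220 replicate 1 the highest of its group, and the fall was 2.02-fold (SE 0.133 on the log2 scale, adjusted p = 1.6e-07).

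TM7SF2, the sterol reductase that follows CYP51A1, went the other way. It had 20.8, 28.9 and 29.8 CPM in MV4-11 AC220 and 10.8, 9.63 and 11.5 CPM in MV4-11 DMSO. Replicate 1 was the lowest AC220 library and still lay well above all DMSO libraries, and TM7SF2 rose 2.48-fold (1.31, SE 0.153, adjusted p = 1.73e-08). SQLE, the squalene epoxidase, fell to 47.1 ± 1.43 CPM, against 68.8 ± 4.15 CPM (-0.55, adjusted p = 1.33e-06). EBP, the sterol isomerase, fell to 46.7 ± 6.19 CPM, against 61.2 ± 2.94 CPM (-0.39, adjusted p = 0.000633). CYP51A1, the lanosterol demethylase, had 46.5, 33.5 and 27.3 CPM in MV4-11 AC220 and 47.6, 51.3 and 54.9 CPM in MV4-11 DMSO. AC220 replicate 1 lay just under the lowest DMSO library and the other AC220 libraries well below it. The fall of CYP51A1 (-0.51, SE 0.148, adjusted p = 0.009) was not called without AC220 replicate 2 (adjusted p = 0.0538).

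The other sterol genes were not called. FDFT1, the squalene synthase that commits farnesyl diphosphate to sterols, had 229.9 ± 6.27 CPM in MV4-11 AC220 and 214 ± 8.70 CPM in MV4-11 DMSO (0.10, 95% interval -0.0224 to 0.227). LSS, the lanosterol synthase, had 9.24 ± 1.75 and 7.41 ± 0.770 CPM, and NSDHL, a sterol dehydrogenase, 25.0 ± 2.49 and 28.2 ± 0.542 CPM. HSD17B7, a sterol ketoreductase, had 4.72 ± 0.601 and 5.72 ± 0.497 CPM, and SC5D, the sterol desaturase before DHCR7, 6.83 ± 1.62 and 7.96 ± 1.78 CPM. Their log2 fold changes lay between -0.28 for HSD17B7 and 0.32 for LSS. Without AC220 replicate 2 LSS was called higher (adjusted p = 0.0417), and without AC220 replicate 3 NSDHL was called lower (0.0486). HSD17B7 and FDPS have pseudogene copies whose reads the counting may have divided or lost.

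SREBP control moved less. Of its 5 genes, SREBF2 rose, INSIG1 fell and 3 were not called (median log2 fold change -0.0573). INSIG1, the sterol-regulated anchor of SCAP, had 107, 88.1 and 86.9 CPM in MV4-11 AC220 and 122, 145 and 152 CPM in MV4-11 DMSO. AC220 replicate 1 was the highest of its group and lay below the lowest DMSO library, and INSIG1 fell 1.48-fold (-0.57, SE 0.0939, adjusted p = 1.12e-05). SREBF2, which encodes the SREBP that mainly drives cholesterol genes, had 62.0, 69.0 and 66.0 CPM in MV4-11 AC220 and 52.0, 56.9 and 54.5 CPM in MV4-11 DMSO. The groups were close but did not overlap. The rise of SREBF2 (0.27, SE 0.0898, adjusted p = 0.0114) was lost without AC220 replicate 3 (adjusted p = 0.0743) and without DMSO replicate 1 (0.0592). It was also lost with library size alone in place of TMM (adjusted p = 0.0977). SREBF1, which encodes the SREBP that mainly drives fatty acid genes, had 45.6 ± 2.68 CPM in MV4-11 AC220 and 47.5 ± 2.89 CPM in MV4-11 DMSO, a log2 fold change of -0.06 with a 95% interval of -0.247 to 0.132.

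SCAP, the SREBP escort, had 53.3, 67.4 and 67.4 CPM in MV4-11 AC220 and 57.0, 55.9 and 57.6 CPM in MV4-11 DMSO. STARD4, a cytosolic sterol carrier, had 6.46, 3.72 and 3.36 CPM in MV4-11 AC220 and 6.55, 5.84 and 6.49 CPM in MV4-11 DMSO. For both genes AC220 replicate 1 sat near the DMSO libraries and the other AC220 libraries did not. Neither was called with all libraries after TMM scaling and the filter on low counts (adjusted p = 0.178 for SCAP and 0.0788 for STARD4). STARD4 was called lower with library size alone in place of TMM (adjusted p = 0.0415). It was also called lower with no filter on low counts (0.049) and by limma on the deposited normalised values (0.0428). Without AC220 replicate 1, SCAP was called higher (0.24, adjusted p = 0.0118) and STARD4 lower (-0.83, adjusted p = 0.00321).

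The 5 tested genes of the fatty acid branch all fell in MV4-11 AC220, with a median log2 fold change of -1.03 and no library overlapping the other group, which held in this direction for 28.9% of all tested genes. Their summed level with ELOVL6 was 399 to 417 CPM in MV4-11 AC220 libraries, against 786 to 824 CPM in MV4-11 DMSO libraries. FADS1, a desaturase that makes arachidonate and other polyunsaturated fatty acids, had 20.3, 20.7 and 21.6 CPM in MV4-11 AC220 and 62.1, 61.9 and 63.4 CPM in MV4-11 DMSO. Each group was tight, and FADS1 fell 3-fold (-1.58, SE 0.0771, adjusted p = 8.24e-17). FASN, the fatty acid synthase, had 106, 117 and 107 CPM in MV4-11 AC220, against 247, 216 and 217 CPM in MV4-11 DMSO. The highest AC220 library was far below the lowest DMSO library, and the fall was 2.06-fold (SE 0.0704 on the log2 scale, adjusted p = 1.72e-13).

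SCD, which makes monounsaturated fatty acids, had 154, 125 and 129.5 CPM in MV4-11 AC220 and 278, 272 and 285 CPM in MV4-11 DMSO. The DMSO libraries were again tight, the AC220 libraries all lower, with a 2.04-fold fall (-1.03, SE 0.0692, adjusted p = 1.58e-13). ACLY, which splits citrate to supply cytosolic acetyl-CoA to both routes, fell to 110.2 ± 4.57 CPM, against 182 ± 0.334 CPM (-0.72, adjusted p = 1.48e-10). FADS2, the desaturase upstream of FADS1, fell to 28.8 ± 2.98 CPM, against 56.3 ± 2.60 CPM (-0.97, adjusted p = 2.92e-10). The annotated spans of FADS1 and FADS2 overlap, so reads in the shared stretch may be divided between them or lost. ELOVL6 had 0 or 1 count in each MV4-11 AC220 library and 1 to 3 in each MV4-11 DMSO library, too few for a test.

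In the LXR branch 3 of 4 tested genes rose (against 31.5% of all tested genes) and none fell (against 26.9%). The median log2 fold change was 0.681. MYLIP, the ubiquitin ligase also known as IDOL that degrades lipoprotein receptors, had 63.5, 53.4 and 51.4 CPM in MV4-11 AC220 and 28.8, 26.2 and 23.9 CPM in MV4-11 DMSO. Every AC220 library was above every DMSO library by a wide margin, and MYLIP rose 2.13-fold (1.09, SE 0.114, adjusted p = 4.08e-09). ABCA1, which passes cholesterol to apolipoproteins outside the cell, had 11.6, 10.6 and 13.3 CPM in MV4-11 AC220 and 5.74, 6.22 and 6.62 CPM in MV4-11 DMSO. The groups did not overlap, and ABCA1 rose 1.91-fold (0.93, SE 0.165, adjusted p = 1.75e-05).

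NR1H2, the widely expressed LXR receptor, had 25.1, 37.7 and 31.6 CPM in MV4-11 AC220 and 25.7, 22.7 and 21.5 CPM in MV4-11 DMSO. AC220 replicate 1 fell within the DMSO range, so the groups overlapped, and the rise (0.43, SE 0.128, adjusted p = 0.0052) was lost without AC220 replicate 2 (adjusted p = 0.0741). NR1H3, the LXR receptor of macrophages and liver, had 2.13, 3.17 and 2.00 CPM in MV4-11 AC220 and 3.02, 2.82 and 3.60 CPM in MV4-11 DMSO, and was not called (-0.38, 95% interval -0.833 to 0.0715), but was called lower without AC220 replicate 2 (adjusted p = 0.038). ABCG1 had at most 1 count in any MV4-11 library. Of 8 myeloid markers 6 also rose in MV4-11 (against 31.5% of all tested genes) and none fell, and their summed level was 746 to 781 CPM in MV4-11 AC220 libraries, against 446 to 476 CPM in MV4-11 DMSO libraries. Of 3 B cell markers CD79A rose, and their sum was 4.94 to 5.72 CPM, against 1.61 to 2.32 CPM. The part of these markers in the results of MV4-11 was not tested.

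**Figure D2:**
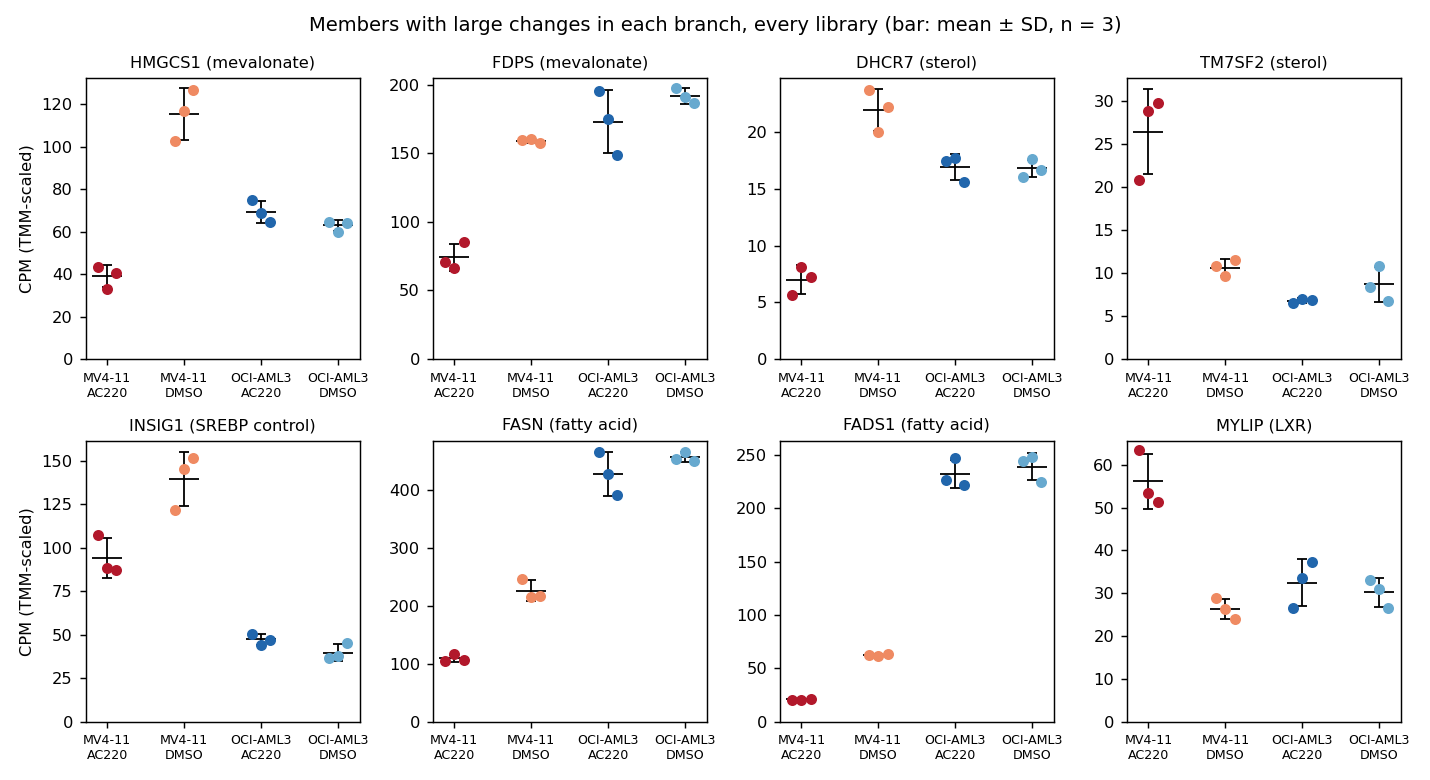
Levels of 8 members in every library. Each panel shows CPM (vertical axis, from 0) for MV4-11 AC220, MV4-11 DMSO, OCI-AML3 AC220 and OCI-AML3 DMSO, with a point per library and bars for the mean and SD of 3. The 8 were picked for large changes in their branch. In MV4-11, HMGCS1, FDPS, DHCR7, INSIG1, FASN and FADS1 lie lower under AC220 and TM7SF2 and MYLIP higher, with no overlap. Of all tested genes in MV4-11, 28.9% were lower under AC220 with no overlap and 33.5% higher.

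In OCI-AML3, AC220 raised 1 of the 32 members, IDI1, and lowered none (3.12% called, against 3.95% of all tested genes, of which 3.44% were higher and 0.508% lower). The median log2 fold change of the 32 was 0.016, against -0.00242 over all genes. Without OCI-AML3 AC220 replicate 3, 0 members were called and 22 of all tested genes. Without OCI-AML3 DMSO replicate 3, 2 members were called higher and 0 lower, and 998 of all tested genes were called. With all libraries 489 genes were called. IDI1 had 19.1, 19.4 and 24.2 CPM in OCI-AML3 AC220, against 9.72, 9.73 and 15.3 CPM in OCI-AML3 DMSO. Replicate 3 was the highest library in each group, and the lowest AC220 library lay above the highest DMSO library. IDI1 was 1.8-fold higher (0.85, SE 0.167, adjusted p = 0.00858), and its annotated span overlaps that of WDR37. The call was lost without OCI-AML3 AC220 replicate 3 (adjusted p = 0.0827), OCI-AML3 DMSO replicate 1 (0.0891) or OCI-AML3 DMSO replicate 2 (0.0962), and by limma on the deposited normalised values (0.126).

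Among the other 31 members the log2 fold change in OCI-AML3 lay between -0.35 for TM7SF2 and 0.40 for ABCA1, and all 95% intervals lay within -0.709 to 0.701. For the 14 members that fell in MV4-11 the intervals in OCI-AML3 ran from -0.323 (FDPS) to 0.636 (CYP51A1), so that a fall of 2-fold lies outside each of them. An unadjusted p under 0.05 was reached by 5 members, IDI1, CYP51A1, SREBF1, INSIG1 and ABCA1, each with a positive log2 fold change. Over all tested genes 13.2% reached it with a positive and 7.59% with a negative log2 fold change, so the upward lean is shared by the whole table. CYP51A1 had 109 ± 5.11 CPM in OCI-AML3 AC220 and 85.9 ± 9.86 CPM in OCI-AML3 DMSO (adjusted p = 0.175), and SREBF1 48.5 ± 6.69 and 39.8 ± 1.45 CPM (adjusted p = 0.0708). Leaving out MV4-11 AC220 replicate 1, which enters through the shared estimate of spread, brought CYP51A1 (adjusted p = 0.00622) and SREBF1 (0.0375) past the threshold, for 3 members higher and 0 lower. Summed over the fatty acid branch, the level was 1071 to 1177 CPM in OCI-AML3 AC220 libraries and 1119 to 1166 CPM in OCI-AML3 DMSO libraries.

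The difference of the responses, the log2 fold change in MV4-11 minus that in OCI-AML3, was tested directly. It was called for 20 of the 32 members (62.5%, against 46.7% of all tested genes), 15 of them negative (23.7% of all genes) and 5 positive (23% of all genes). The negative ones were 13 of the 14 members that fell in MV4-11, with IDI1 and SREBF1 in addition, and the same MV4-11 libraries enter both tests. HMGCS1 had the most negative difference (-1.70, SE 0.13, adjusted p = 5.71e-12), next to DHCR7 (-1.67, SE 0.188) and FADS1 (-1.54, SE 0.101). For EBP, which fell in MV4-11 without a call here, the difference was -0.30 with a 95% interval of -0.589 to -0.00957 (adjusted p = 0.0841). TM7SF2 had the most positive difference (1.66, SE 0.233), ahead of MYLIP (0.98, SE 0.164) and NR1H2 (0.66, SE 0.19).

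The differences of SREBF1 (-0.34), SREBF2 (0.31) and ABCA1 (0.53) were close to the threshold, with adjusted p-values of 0.0324, 0.0484 and 0.0483. With the threshold kept at 0.05 they were lost in 8, 13 and 13 of 20 alternatives, and at a threshold of 0.01 each was lost. Without MV4-11 AC220 replicate 1, 16 members had a negative and 6 a positive difference, with STARD4 (-1.03, adjusted p = 0.00507) and SCAP (0.38, adjusted p = 0.00453) gained.

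**Figure D3:**
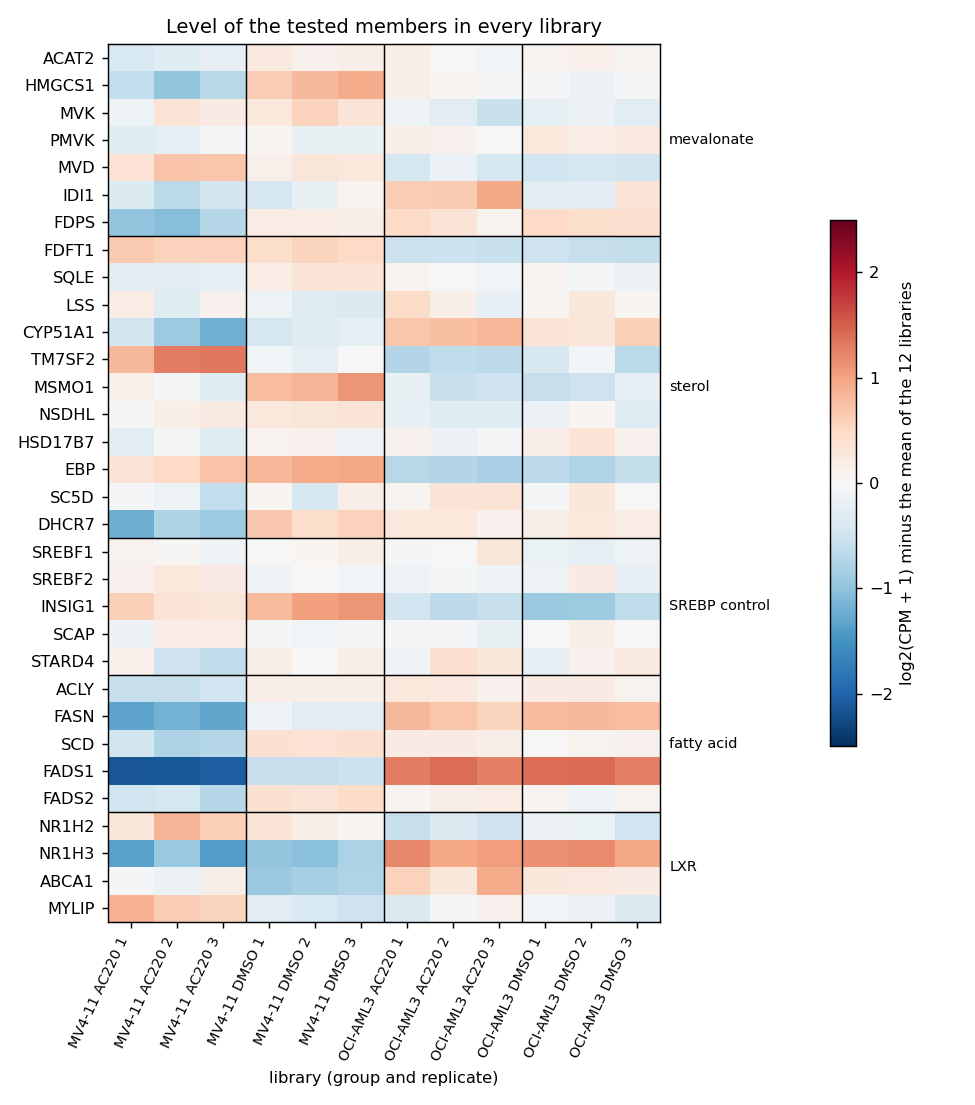
Levels of the 32 tested members in all 12 libraries. Colour shows log2(CPM + 1) minus the gene's mean over the 12 libraries, from -2.5 (blue) to 2.5 (red), with rows grouped by branch and columns by line and treatment. The fatty acid rows are blue in MV4-11 AC220, and FADS1, FASN and NR1H3 are lower in MV4-11 than in OCI-AML3 under both treatments.

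The lines also differed with and without the drug. Under AC220 28 of 32 members were called between them (87.5%, against 76.2% of all tested genes), 11 higher in MV4-11 (36.7% of all genes) and 17 lower (39.5%). Under DMSO 22 were called (68.8%, against 65.5%), 14 higher in MV4-11 (32.1% of all genes) and 8 lower (33.4%). The share under DMSO is near that of all genes. The sets of libraries in these comparisons do not overlap.

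Under DMSO, INSIG1 stood 3.5-fold higher in MV4-11, with 139 ± 15.7 CPM in MV4-11 and 39.7 ± 4.77 CPM in OCI-AML3 (1.81, adjusted p = 1.05e-14). Several sterol enzymes were higher too, with EBP 3.06-fold, MSMO1 2.63-fold and FDFT1 2.1-fold above OCI-AML3. On the lower side were NR1H3, with 3.15 ± 0.405 CPM in MV4-11 and 16.0 ± 1.41 CPM in OCI-AML3 (5.07-fold lower), FADS1, with 62.5 ± 0.827 and 239 ± 12.3 CPM (3.82-fold lower), ABCA1 (2.29-fold lower) and FASN (2.02-fold lower). The span of NR1H3 overlaps that of ACP2. Beside these, 4 epithelial and stromal markers, mainly COL1A2, summed to 0.232 to 0.386 CPM in MV4-11 DMSO libraries and 3.27 to 5.57 CPM in OCI-AML3 DMSO libraries. The 8 myeloid markers summed to 446 to 476 CPM in MV4-11 DMSO libraries and 716 to 732 CPM in OCI-AML3 DMSO libraries, and the 3 B cell markers to 1.61 to 2.32 and 0.145 to 0.777 CPM. The part of these markers in the differences was not tested. ABCG1 was near the limit of detection in both lines, with 0 or 1 count per MV4-11 library and 2 to 5 per OCI-AML3 library.

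Called in opposite directions were 5 members, HMGCS1, SQLE, DHCR7, SCD and FADS2, each lower in MV4-11 than in OCI-AML3 under AC220 and higher under DMSO (15.6% of the 32, against 3.16% of all tested genes). HMGCS1 was 1.77-fold lower in MV4-11 under AC220 (adjusted p = 5.11e-09) and 1.83-fold higher under DMSO (adjusted p = 9.17e-10). DHCR7 was 2.44-fold lower under AC220 and 1.31-fold higher under DMSO, and SCD 1.78-fold lower under AC220 and 1.25-fold higher under DMSO. In the same direction under both treatments were 15 members (46.9%, against 49% of all tested genes), 8 higher and 7 lower in MV4-11. FADS1 was 11.1-fold lower in MV4-11 under AC220 and NR1H3 6.49-fold lower. TM7SF2 was 3.87-fold higher in MV4-11 under AC220 and not called between the lines under DMSO (log2 fold change 0.30), and IDI1 was 2.52-fold lower under AC220 and not called under DMSO (-0.13).

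**Figure D4:**
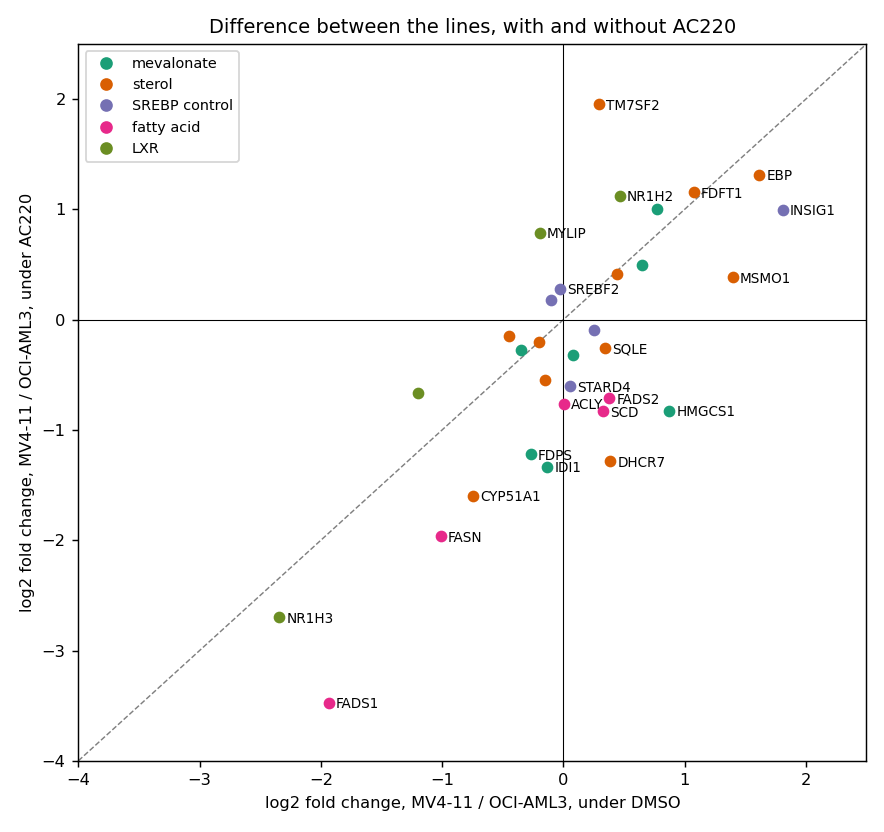
Difference between the lines for the 32 tested members. The vertical axis gives the log2 fold change of MV4-11 over OCI-AML3 under AC220 and the horizontal axis that under DMSO, with colours for the branch and a dashed line where both are equal. HMGCS1, SQLE, DHCR7, SCD and FADS2 lie in the lower right quadrant, lower in MV4-11 under AC220 and higher under DMSO.

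Genes next to these pathways were followed in 4 further lists of 51 genes, and their counts stand against 31.5% of all tested genes that rose and 26.9% that fell in MV4-11. Of 9 genes that use isoprenoids, 4 fell in MV4-11 and none rose (median log2 fold change -0.186). PDSS1, which makes the tail of coenzyme Q, fell to 4.46 ± 0.677 CPM in MV4-11 AC220, against 12.7 ± 1.04 CPM in MV4-11 DMSO (-1.51, adjusted p = 3.59e-09), and COQ2, which attaches it, to 37.4 ± 2.39 CPM, against 69.0 ± 4.23 CPM (-0.88, adjusted p = 1.9e-10). Of 17 genes of sterol sensing, esterification and traffic, 6 rose and 3 fell (median 0.0654). NPC2, the lysosomal cholesterol carrier (0.68), and ERLIN1, of the sterol-dependent degradation machinery in the endoplasmic reticulum (0.71), rose. LRP8, a lipoprotein receptor (-1.22), and MBTPS2, a protease that cleaves SREBP (-0.94), fell.

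Of 18 tested genes of acetyl-CoA supply, elongation and acyl-CoA use, 3 rose and 6 fell in MV4-11 (median log2 fold change -0.169). SLC25A1, the mitochondrial citrate exporter, rose to 89.0 ± 12.1 CPM in MV4-11 AC220, against 49.0 ± 3.22 CPM in MV4-11 DMSO (0.86, adjusted p = 8.88e-10), and ACSS2, which makes acetyl-CoA from acetate, to 23.1 ± 2.71 CPM, against 12.8 ± 0.644 CPM (0.85, adjusted p = 2.32e-06). ACSL3, an acyl-CoA synthetase (-0.98), and MLX, the partner of the glucose-sensing factor MLXIPL (-0.88), fell. All 5 tested LXR partners and other LXR targets rose (median 0.534). PLTP, the phospholipid transfer protein, rose to 54.2 ± 5.37 CPM in MV4-11 AC220, against 24.0 ± 1.00 CPM in MV4-11 DMSO (1.17, adjusted p = 1.06e-11). In OCI-AML3, ERLIN1 was the 1 gene of these lists that was called, higher under AC220 (0.39, adjusted p = 0.0282).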

How the data were processed

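DNase-treated total RNA was made into 12 libraries with the Lexogen QuantSeq kit, per the labels' protocols, 3 for each line and treatment. Because that kit reads transcript ends, counts do not grow with transcript length, and isoforms ending elsewhere may be lost. For alignment and counting, HISAT2 2.0.4, featureCounts of Subread 2.0.0 and the build hg19 are named in the submitters' processing notes, as is limma 3.42.2 with R 3.6.1. The annotation, strand setting and treatment of multi-mapping reads are not given in the sources used here.

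Raw counts for each gene symbol were deposited, 1 column per library. The 1 row lacking a symbol, with 0.00343% to 0.00503% of the counts of each library, was dropped. The authors also deposited log2 values named as a voom-limma output, used here as an alternative input. After filterByExpr on the 4 groups and TMM scaling, all 12 libraries were fitted together by robust quasi-likelihood in edgeR 4.0.16 (R 4.3.3, with 8 residual degrees of freedom and a common biological coefficient of variation of 8.28%), with Benjamini-Hochberg adjustment over 12392 genes at 0.05. The 5 contrasts set AC220 against DMSO within MV4-11 and within OCI-AML3, compared these responses, and set MV4-11 against OCI-AML3 under each treatment. No pair of libraries held identical values.

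The members, the 4 further lists and the marker lists were chosen with earlier results of these data known. The text names all 35 members, from each further list the 2 genes with the smallest adjusted p in each direction among those called in MV4-11, and FLT3. Some genes of the further and marker lists are not reported here by name. Alternatives were median-ratio size factors, library size alone, no low-count filter, a stricter one (2 CPM in 3 libraries), limma-voom and limma on the deposited values (limma 3.58.1), DESeq2 1.42.0, a replicate block, the compared libraries alone, a threshold of 0.01, and leaving out each library. The procedure was tested on simulated data. Promoter sequences were matched by symbol to RefSeq, GRCh38.p14.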

Additional observations from a re-analysis of the deposited data

Results flagged for a closer look

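For 20 members the response to AC220 differed between MV4-11 and OCI-AML3 by the test of the difference itself, against 46.7% of all tested genes, and each value here is the log2 fold change in MV4-11 minus that in OCI-AML3. In the mevalonate steps the difference was -1.70 for HMGCS1, -1.20 for IDI1, -0.95 for FDPS and -0.41 for ACAT2. Among sterol genes it was -1.67 for DHCR7, -1.015 for MSMO1, -0.85 for CYP51A1, -0.60 for SQLE and 1.66 for TM7SF2. In SREBP control it was -0.81 for INSIG1, -0.34 for SREBF1 and 0.31 for SREBF2. The fatty acid genes had -1.54 for FADS1, -1.155 for SCD, -1.09 for FADS2, -0.95 for FASN and -0.77 for ACLY. The LXR branch had 0.98 for MYLIP, 0.66 for NR1H2 and 0.53 for ABCA1. IDI1 and SREBF1 were not called in MV4-11, and their differences rest in part on higher values in OCI-AML3 AC220.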

How the results depend on the processing

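Counts of members called in MV4-11 (6 higher, 14 lower) and between the lines stayed within 1.5 times under every alternative run, and no called member changed direction. Of the called members, 16 of 20 in MV4-11, 17 of 20 for the difference of the responses, 22 of 28 between the lines under AC220 and 19 of 22 under DMSO stayed called under every alternative. Leaving out 1 library gave 4 to 7 members higher and 14 to 15 lower in MV4-11. With library size alone, MVK, NSDHL and STARD4 were also called lower in MV4-11, and MVD and SREBF2 were not called. The OCI-AML3 response depended most on the setting. In place of 489 genes called there, library size alone gave 264, no filter on low counts 836, limma on the deposited values 1, DESeq2 813, a threshold of 0.01 gave 47, and leaving out 1 library 13 to 1136. Members higher in OCI-AML3 (1) were 2 with no filter, 0 by limma on the deposited values, 2 with the compared libraries alone, and 0 to 3 with 1 library left out. Members with a positive difference of the responses (5) were 3 with library size alone, no filter, limma-voom, limma on the deposited values or a threshold of 0.01, and 3 to 6 with 1 library left out. The cause was not tested. The 95% intervals of members of about 5 CPM, such as HSD17B7 and STARD4, are wide at this depth, and ELOVL6 and ABCG1 could not be tested.

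Replicate numbers are shared between groups. Over all groups, 5 of 12 libraries correlated best with their own number, and correlations of same-numbered libraries ran from -0.181 to 0.18. Between OCI-AML3 AC220 and OCI-AML3 DMSO they were all positive, 0.0843, 0.0494 and 0.18 for replicates 1, 2 and 3. Between MV4-11 AC220 and MV4-11 DMSO they were all negative, -0.12, -0.0936 and -0.0803. With a replicate block the members called were 6 higher and 14 lower in MV4-11, 1 and 0 in OCI-AML3, and 5 positive and 15 negative for the difference.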
